A study of Mus musculus with 6 samples.

Results

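Cell division rests on a set of genes that are switched on in order. Before DNA is copied, Cdc6 and Cdt1 load the Mcm2-7 helicase onto replication origins, and cyclin E and the transcription factor E2F1 drive the cell into S phase. After replication, cyclin A, cyclin B, Cdk1 and the Plk1 and Aurora kinases take the cell through G2 and mitosis. There the spindle checkpoint holds back the APC/C ubiquitin ligase, which triggers the separation of sister chromatids. Macrophages grown from bone marrow divide under the growth factor M-CSF, which L929-conditioned medium supplies.

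The genes described here are 48 cell cycle and DNA replication genes, taken by symbol from a list of 24 replication (S phase) genes and 24 mitosis (G2/M) genes among the 54532 genes of the files. All 48 were found and all 48 passed the filter on low values. Their levels were measured in 6 poly-A RNA-seq libraries of bone-marrow-derived macrophages (BMDMs) from wildtype C57BL/6 mice, in 3 groups of 2 libraries (replicates A and B). BMDMs are primary macrophages that form in culture from marrow cells. The untreated group (Untr) received neither agent, and the LPS group received 100 ng/ml lipopolysaccharide (LPS), which is shed from the outer membrane of bacteria and activates the receptor TLR4, for 2 h. The Met + LPS group received 5 mM metformin, a drug for type 2 diabetes that inhibits mitochondrial complex I, for 6 h and then 100 ng/ml LPS for 2 h. No group received metformin without LPS, so that the comparison of Met + LPS with LPS shows metformin in LPS-treated cells only.

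The values are TPM, which correct reads for the length of a gene and then give every library an equal total. They can therefore be compared between genes within a library. Between libraries they compare shares of that total only, and results are also given below after rescaling. Reads recovered from the values numbered 25457016 to 30762755 per library, and the members rested on between 16 reads (Fen1 in its lowest library) and 16979 reads (Mki67 in its highest). The labels and methods do not say whether the duplicates came from separate mice, and p-values then measure only the spread between these libraries, which may be technical. In bulk RNA, fewer cycling cells and less RNA of a gene per cell cannot be told apart. Macrophage markers were abundant in every library (8 of 8 genes tested, 44600 to 46600 TPM summed in Untr, 37400 to 37900 in LPS and 30900 in both Met + LPS libraries). Bone marrow progenitor markers, from dividing cells that a marrow culture can still hold, summed to 44.6 to 48.4 TPM in Untr, 20.1 to 26.2 in LPS and 49.2 to 49.7 in Met + LPS, and neutrophil markers to 30.0 to 32.8, 26.7 to 28.2 and 43.6 to 45.9 TPM. Kit and Elane made up most of the progenitor sum. Kit had means of 19.6, 7.96 and 23.6 TPM in Untr, LPS and Met + LPS, and Elane 16.3, 8.64 and 15.6 TPM. Cd34, Flt3 and Gata2 were under 1 TPM in every library. Elane and Mpo stand in both lists. Markers of B cells, T cells and erythroid cells summed to less than 1 TPM in each library, and those of fibroblasts to between 0.71 and 3.06 TPM. The part of these other cells in the results was not tested.

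The promoters of the 2 kinds of gene carry different short sequences. E2F factors bind short GC-rich sites, which were searched as TTTCCCGC, TTTCGCGC, TTTGCCGC and TTTGGCGC on both strands. The cell cycle genes homology region (CHR), which the DREAM and MuvB complexes bind in G2/M genes, was searched as TTTGAA, and the CCAAT box, bound by NF-Y, as CCAAT. RefSeq promoter sequences (GRCm38.p6, from 250 bases before to 50 bases after a start site) were found for 41 of the 48 members. Ccna2, Aurkb, Kif20a, Tpx2, Mcm4, Gins2 and Ccne2 had no entry. The 6 promoters printed here are examples of the same motif in members that moved in opposite directions. Of all 9 replication genes with an E2F site, 2 rose and 5 fell with metformin. Of all 15 mitosis genes with a CHR, 1 rose and 14 fell with LPS. Whether a motif bears on the direction was not tested. In capitals are the E2F sites of 4 replication genes, of which Cdt1 and Cdc6 rose and Mcm5 and Mcm6 fell with metformin, and the CHR of 2 mitosis genes, of which Mki67 rose and Kif23 fell with LPS.
Cdt1 (chr8:122567765-122568064, plus strand, site 32 bases after the start): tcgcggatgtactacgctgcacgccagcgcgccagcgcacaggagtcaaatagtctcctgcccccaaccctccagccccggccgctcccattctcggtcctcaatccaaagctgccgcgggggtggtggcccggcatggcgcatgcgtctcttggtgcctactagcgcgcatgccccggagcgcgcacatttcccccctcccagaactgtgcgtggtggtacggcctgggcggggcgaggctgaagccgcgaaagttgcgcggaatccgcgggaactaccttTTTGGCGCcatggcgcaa
Cdc6 (chr11:98907901-98908200, plus strand, site at -138 on the opposite strand): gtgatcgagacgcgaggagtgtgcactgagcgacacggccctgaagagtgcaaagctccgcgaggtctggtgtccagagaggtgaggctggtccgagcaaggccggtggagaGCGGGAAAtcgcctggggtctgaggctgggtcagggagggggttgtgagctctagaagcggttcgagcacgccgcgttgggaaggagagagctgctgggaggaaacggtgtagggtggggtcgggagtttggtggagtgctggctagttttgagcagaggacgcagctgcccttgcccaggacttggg
Mcm5 (chr8:75109259-75109558, plus strand, overlapping sites at -153 and -149): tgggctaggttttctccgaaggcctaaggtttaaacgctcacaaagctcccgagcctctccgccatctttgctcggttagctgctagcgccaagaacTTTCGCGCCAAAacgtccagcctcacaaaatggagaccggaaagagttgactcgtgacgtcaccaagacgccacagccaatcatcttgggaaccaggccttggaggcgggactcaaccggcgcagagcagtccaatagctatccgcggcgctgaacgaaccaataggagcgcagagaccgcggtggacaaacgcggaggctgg
Mcm6 (chr1:128359656-128359955, minus strand, overlapping sites at -110 and -106 and a site at -47): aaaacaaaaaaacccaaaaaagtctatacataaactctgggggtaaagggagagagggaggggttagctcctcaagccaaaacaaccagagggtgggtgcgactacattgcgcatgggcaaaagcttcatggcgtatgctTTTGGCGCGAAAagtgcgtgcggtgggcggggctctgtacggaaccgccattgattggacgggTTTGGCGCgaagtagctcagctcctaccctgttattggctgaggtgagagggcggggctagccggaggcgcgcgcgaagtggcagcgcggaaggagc
Mki67 (chr7:135716330-135716629, minus strand, CHR at -116 and -98): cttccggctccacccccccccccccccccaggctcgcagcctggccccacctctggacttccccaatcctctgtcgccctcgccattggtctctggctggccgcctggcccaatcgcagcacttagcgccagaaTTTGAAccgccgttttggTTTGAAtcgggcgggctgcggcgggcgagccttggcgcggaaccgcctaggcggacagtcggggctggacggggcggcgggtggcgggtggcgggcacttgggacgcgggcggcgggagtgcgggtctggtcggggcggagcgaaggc
Kif23 (chr9:61946750-61947049, minus strand, CHR at 2): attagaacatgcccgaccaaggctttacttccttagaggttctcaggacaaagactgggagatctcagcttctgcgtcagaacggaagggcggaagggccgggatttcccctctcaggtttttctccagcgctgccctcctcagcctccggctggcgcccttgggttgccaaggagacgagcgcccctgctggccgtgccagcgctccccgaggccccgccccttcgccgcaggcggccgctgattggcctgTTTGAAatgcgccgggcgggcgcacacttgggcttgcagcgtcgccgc

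An E2F site stood in 9 of the 24 promoters of replication genes (37.5%) and in 1 of the 21 promoters of mitosis genes (4.76%, the promoter of Cdk1). Among all 32851 mouse promoters of the same length, 2.26% held one. The CHR showed the opposite division, with 16 of 21 mitosis promoters (76.2%) and 3 of 24 replication promoters (12.5%) against 17.9% of all. The CCAAT box was in 90.5% of the mitosis promoters, 62.5% of the replication promoters and 37.4% of all. Overlaps between motifs were few: E2F sites on opposite strands overlapped in Mcm5 and Mcm6, a CCAAT box overlapped the CHR of Cdca8 and an E2F site of Mcm7, and CCAAT boxes overlapped each other in Ube2c and Uhrf1. A match is a description of the letters in this window and not a measure of binding. A missing match does not show that a gene lacks a site, because only these exact sequences were searched. Some windows also lay inside the annotated gene. That of E2f1 was 154569377 to 154569676 on chromosome 2, and the gene runs from 154559407 to 154569892. The Cdc6 window printed above began after the gene's annotated start of 98907801.

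**Figure D1:**
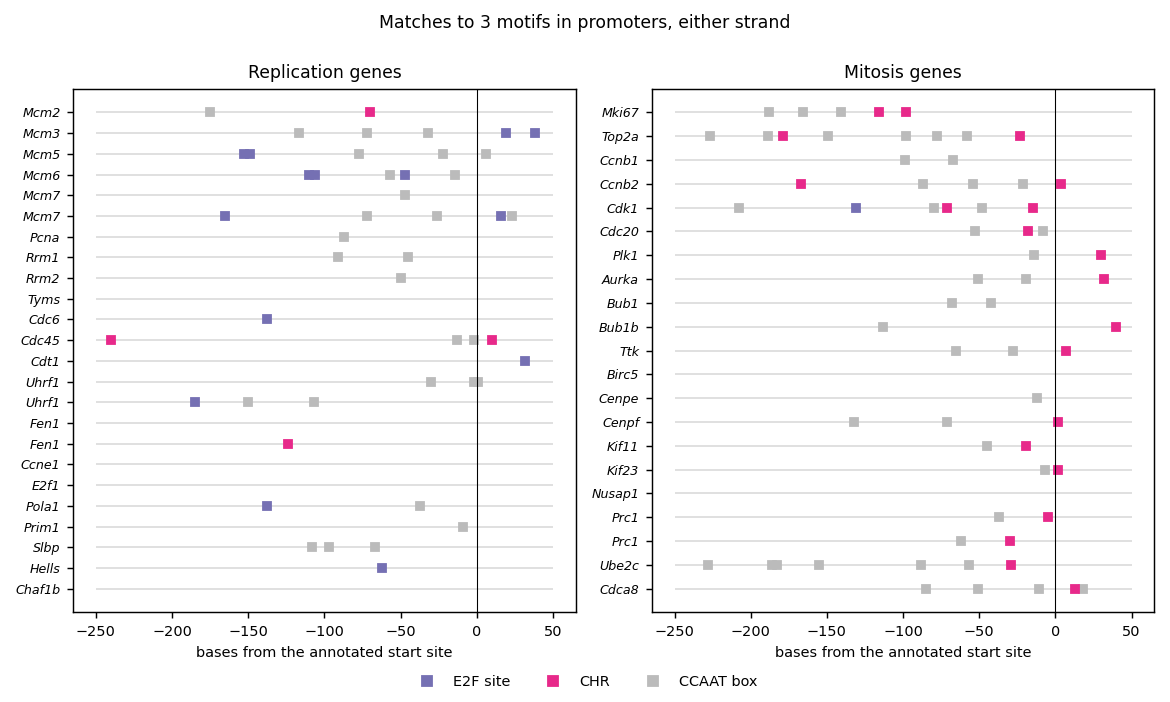
Matches to the E2F site, the CHR and the CCAAT box in the members' promoters, by distance in bases from the annotated start site (0), with 1 line per promoter and replication genes on the left. E2F sites lie on 9 of the 24 replication lines and the CHR on 16 of the 21 mitosis lines.

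In untreated BMDMs both programs were expressed. The median level was 20.1 and 19.5 TPM over the replication genes and 17.5 and 17.4 TPM over the mitosis genes in libraries A and B. Pcna, the sliding clamp of the replication fork, stood far above all others at 535 and 529 TPM, followed by the helicase subunit Mcm6 at 95.4 and 103 TPM and the licensing factor Cdt1 at 70.1 and 65.6 TPM. Among the mitosis genes the highest was Mki67, which encodes the proliferation marker Ki-67 that coats mitotic chromosomes, at 60.3 and 60.5 TPM. The lowest members as counted were Fen1, the flap endonuclease that trims Okazaki fragments (3.48 and 3.46 TPM), and Ttk, a spindle checkpoint kinase (4.36 and 3.94 TPM). Only 20.4% of the 31-base words of Fen1 are its own, so that its reads could have been split or dropped in counting. Duplicates were close: the median absolute difference between A and B was 0.07 to 0.10 on the log2 scale over the replication genes and 0.08 to 0.12 over the mitosis genes, beside 0.06 to 0.08 over all tested genes. Replicate A was the higher for 18 of the 24 mitosis genes in Untr, 19 in LPS and 14 in Met + LPS. Over all 12755 tested genes it was the higher for 6033, 6654 and 6765.

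**Figure D2:**
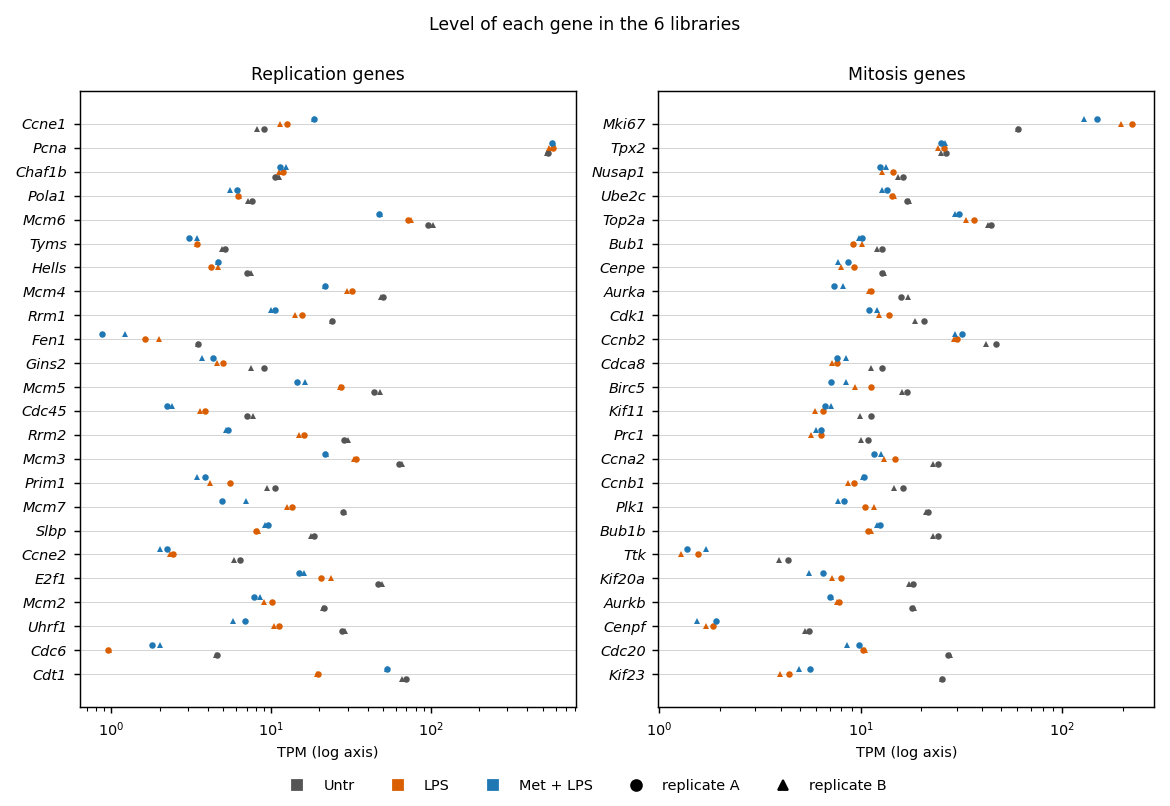
TPM (log axis) of each of the 48 members in the 6 libraries, with replication genes on the left and mitosis genes on the right, sorted by their change with LPS; colours mark groups, circles replicate A and triangles replicate B. Most members lie lower in the LPS libraries than in Untr, while Mki67 rises from 60.3 and 60.5 to 222 and 195 TPM and Pcna stays between 529 and 579 TPM.

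In the TPM as deposited, most replication and mitosis genes were lower after 2 h of LPS. Kif23, Cdt1 and Cdc6 fell furthest on the log2(TPM + 1) scale, while Mki67 and the cyclin gene Ccne1 rose. The comparison asks which of these genes had changed early in the LPS response. In a fit with limma on log2(TPM + 1) with Benjamini-Hochberg adjustment over 12755 genes, 20 of 24 replication genes fell, 1 rose and 3 did not pass an adjusted p-value of 0.01. Of the mitosis genes 21 of 24 fell, 1 rose and 2 did not pass. Over all tested genes 60.1% fell and 16.2% rose at the same threshold. The median log2 fold change was -0.79 for the replication genes and -0.66 for the mitosis genes, beside -0.48 for all tested genes. The median member's level in the LPS libraries was 52.6% of Untr for replication genes and 60.6% for mitosis genes, beside 68.3% for all tested genes.

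On this scale the median of all genes was thus also lower. When the libraries were rescaled so that the median ratio over genes was even, which moved the median of all genes from -0.48 to -0.05, 11 replication genes were lower and 3 higher, and 8 mitosis genes were lower and 3 higher. The background was then 29.5% lower and 29.1% higher. The share of mitosis genes that were lower was thus near that of all genes. Rescaled medians were -0.37 for the replication genes and -0.22 for the mitosis genes. The 11 replication genes that stayed lower were Cdt1, Cdc6, Uhrf1, Ccne2, Mcm2, Slbp, E2f1, Mcm7, Mcm3, Cdc45 and Rrm2, and the 3 higher were Ccne1, Pcna and Chaf1b. The 8 mitosis genes that stayed lower were Kif23, Cdc20, Cenpf, Ttk, Aurkb, Kif20a, Bub1b and Plk1, and the 3 higher were Mki67, Tpx2 and Ube2c. Values and calls given from here on are those of the TPM as deposited, unless rescaling is named, and a member's change reads against the median of -0.48.

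**Figure D3:**
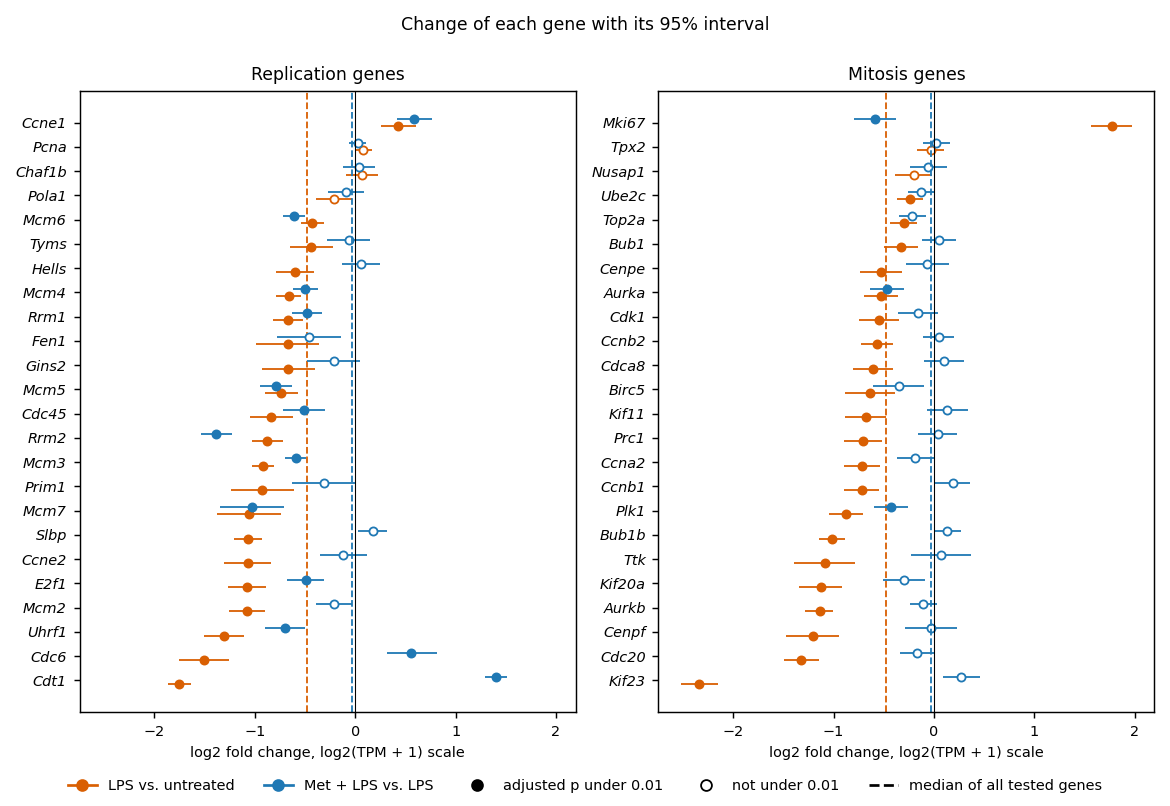
log2 fold change of each member on the log2(TPM + 1) scale with its 95% interval, for LPS vs. untreated (orange) and Met + LPS vs. LPS (blue); filled points have an adjusted p under 0.01 and dashed lines mark the medians of all tested genes, -0.48 and -0.03. Cdt1 and Cdc6 lie left of the orange line and right of the blue one, and Mki67 lies alone on the right among the mitosis genes at 1.77; after rescaling, Top2a, Bub1, Tpx2, Ube2c, Nusap1, Mcm6 and Pola1 change direction in LPS vs. untreated.

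Among the licensing factors, Cdt1 (ENSMUSG00000006585, chromosome 8, 122568015 to 122573554, GRCm38) stood at 70.1 and 65.6 TPM in Untr, 19.7 and 19.2 TPM with LPS and 52.9 and 53.2 TPM in Met + LPS. The 3 groups did not overlap, and LPS was the lowest. Its log2 fold change in LPS vs. untreated was -1.75 ± 0.05 (SE, n = 2 libraries per group; adjusted p = 2.27e-07 in limma), the largest decrease of the replication genes on the log2(TPM + 1) scale, and -1.27 after rescaling. Cdc6 (chromosome 11, 98907801 to 98923940), its partner in loading the helicase, had the same order of groups at lower levels, 4.60 and 4.54 TPM in Untr, 0.955 and 0.970 TPM with LPS and 1.80 and 2.01 TPM in Met + LPS. It fell by 1.51 ± 0.10 on the log2 scale (adjusted p = 1.55e-05 in limma), on 37 to 183 reads per library. The added pseudocount of 1 TPM compresses the change of so low a gene: its mean with LPS was 21.1% of Untr, and with a pseudocount of 0.1 the log2 fold change was -2.14, a decrease larger than that of Cdt1, which was at 28.7% of Untr, and 0.91 for Met + LPS vs. LPS.

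All 6 genes of the Mcm2-7 helicase, which unwinds DNA at the fork, were lower after LPS on the deposited scale, by between -1.08 (Mcm2) and -0.43 (Mcm6, at 0.06 after rescaling). Mcm7 stood at 28.0 and 28.3 TPM in Untr and 13.5 and 12.5 TPM in LPS, Mcm3 at 62.5 and 65.7 against 33.9 and 33.0 TPM, and Mcm5 at 44.2 and 47.8 against 27.4 and 26.8 TPM. No LPS library reached an untreated one for these genes. Cdc45 and Gins2, which join the Mcm ring to form the active helicase, fell by 0.84 and 0.67. Mcm4 (-0.19), Mcm5 (-0.26), Mcm6 (0.06) and Gins2 (-0.25) did not pass the test after rescaling. Gins2 shares 2758 exon bases with Gse1 on the opposite strand, and only 33.8% of its 31-base words are its own, so that its reads cannot be told from those of its neighbour if counting ignored strand.

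Fork factors differed among themselves. Pcna (chromosome 2, 132249162 to 132253314) stood at 535 and 529 TPM in Untr and 579 and 550 TPM in LPS, a log2 fold change of 0.08 (95% interval 0.00 to 0.17, adjusted p = 0.0564), and 76.7% of its 31-base words are its own because of a pseudogene. Chaf1b, a subunit of the histone chaperone CAF-1, had a log2 fold change of 0.07, and Pola1, the catalytic subunit of DNA polymerase alpha, one of -0.21 (0.21 after rescaling), neither of which passed the test. Prim1, the primase that works with Pola1, fell by 0.93. Fen1 fell by 0.67, and only 20.4% of its 31-base words are its own, as an antisense gene covers 1909 of its exon bases. Prim1 (-0.5) and Fen1 (-0.32) did not pass the test after rescaling.

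Genes that act beside the fork and in nucleotide supply all fell on the deposited scale. Uhrf1, which brings the maintenance DNA methyltransferase to new DNA, stood at 27.8 and 29.0 TPM in Untr and 11.2 and 10.4 TPM in LPS, and fell by 1.31. Slbp, which binds the stem-loop of histone mRNAs, fell by 1.07, and the chromatin remodeller gene Hells by 0.60. The ribonucleotide reductase genes Rrm2 and Rrm1 fell by 0.88 and 0.67, and the thymidylate synthase gene Tyms by 0.44. Hells (-0.19), Rrm1 (-0.2) and Tyms (-0.04) did not pass the test after rescaling.

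The 2 cyclin E genes moved in opposite directions. Ccne1 (chromosome 7, 38097984 to 38107534) stood at 8.94 and 8.18 TPM in Untr, 12.5 and 11.3 TPM with LPS and 18.4 and 18.5 TPM in Met + LPS, the only replication gene with its lowest libraries in Untr among those that passed the test. It rose by 0.43 ± 0.07 (SE) with LPS (adjusted p = 0.00108 in limma), or 0.0129 without untreated replicate B. Ccne2 stood at 6.40 and 5.83 TPM in Untr and 2.44 and 2.31 TPM with LPS and fell by 1.07. E2f1, the activator of S phase genes, fell by 1.08, from 46.7 and 49.1 TPM to 20.5 and 23.8 TPM.

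Among the mitosis genes, Mki67 (ENSMUSG00000031004, chromosome 7, 135689784 to 135716361) was the only one to rise on the deposited scale (Tpx2 and Ube2c were also higher after rescaling). It stood at 60.3 and 60.5 TPM in Untr, 222 and 195 TPM with LPS and 149 and 128 TPM in Met + LPS, and the groups did not overlap. The mean in LPS was 345% of Untr, a log2 fold change of 1.77 ± 0.09 (SE, n = 2 libraries per group; adjusted p = 3.41e-06 in limma), and 2.25 after rescaling. The values rested on at least 4359 reads per library, no other annotated gene overlaps its exons, and 98.7% of its 31-base words are its own. Because of its level, Mki67 carried the sum over the mitosis genes: the sum was 510 and 490 TPM in Untr and 498 and 455 TPM in LPS, but 449 and 429 against 276 and 261 TPM without Mki67.

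Genes of the central spindle and cytokinesis fell over a wide range. Kif23 (chromosome 9, 61915905 to 61946774), the kinesin of the centralspindlin complex that is needed for cytokinesis, stood at 25.2 TPM in both untreated libraries, 4.39 and 3.99 TPM with LPS and 5.58 and 4.96 TPM in Met + LPS. It was the only member to pass both the adjusted p-value and a log2 fold change of 2 in this fit of LPS vs. untreated (with voom on recovered reads Cdc6 passed too, at -2.21), at -2.34 ± 0.08 (SE; adjusted p = 5.97e-07 in limma). With this fold cut-off 2.37% of all tested genes were lower and 3.72% higher. Kif20a, another kinesin of the midzone, fell by 1.13 (1271 of its exon bases overlap Cdc23 on the opposite strand), and Prc1, which bundles midzone microtubules, by 0.71. Of the spindle genes, Kif11, the motor that separates spindle poles, fell by 0.68, close to Prc1. Tpx2, an activator of Aurora A, was at -0.03 with overlapping groups. Nusap1, a microtubule-binding protein, was at -0.20 (0.25 after rescaling), and neither Tpx2 nor Nusap1 passed the test. Kif11 (-0.25) and Prc1 (-0.28) did not pass it after rescaling.

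The genes of the cyclin-kinase core of mitosis fell on the deposited scale, with Ccna2 at -0.72, Ccnb1 at -0.72, Ccnb2 at -0.57 and Cdk1 at -0.55. After rescaling these were at -0.26, -0.27, -0.10 and -0.09, and none passed the test (limma; adjusted p from 0.0133 to 0.358). Of the mitotic kinases, Aurkb fell by 1.14, Plk1 by 0.88 and Aurka by 0.53, and the Aurora B partners Birc5 and Cdca8 by 0.64 and 0.61. Aurka (-0.07), Birc5 (-0.19) and Cdca8 (-0.17) did not pass the test after rescaling. In the spindle checkpoint, which delays anaphase until chromosomes are attached, Ttk fell by 1.09 and Bub1b by 1.02, while Bub1 was at -0.33 as deposited and 0.12 after rescaling. The kinetochore genes Cenpf and Cenpe fell by 1.21 and 0.53 (Cenpe at -0.08 and not past the test after rescaling). Of the genes for the APC/C, the activator Cdc20 stood at 27.2 and 27.6 TPM in Untr and 10.3 and 10.5 TPM with LPS and fell by 1.32, whereas the ubiquitin-conjugating enzyme gene Ube2c was at -0.24 as deposited and 0.22 after rescaling. Top2a, the topoisomerase that untangles sister chromatids, was at -0.30 as deposited and 0.17 after rescaling.

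With metformin before LPS, a larger share of the 24 listed replication genes than of all tested genes fell and a few rose. Most mitosis genes did not pass the test. This comparison asks how levels in LPS-treated cells differed when metformin came before LPS. Of the 24 replication genes, 10 fell and 3 rose (limma, adjusted p under 0.01), and of the 24 mitosis genes 3 fell and 0 rose (3 were higher at an unadjusted p under 0.05, and 1, Kif23, with voom on recovered reads). Over all tested genes 18.0% fell and 14.5% rose, beside 41.7% and 12.5% of the replication genes and 12.5% and 0% of the mitosis genes. The share of replication genes that rose was thus near that of all genes. Among 54 other replication genes, described below, 14.8% fell and 14.8% rose, which is near the shares of all genes. The medians were -0.26 for replication genes, -0.06 for mitosis genes and -0.03 for all tested genes, and rescaling left the counts of replication and mitosis genes as they were. With the fold cut-off of 0.7 on the log2 scale, 4 replication genes were lower (Rrm2, Mcm7, Mcm5 and Uhrf1) and 1 higher (Cdt1), and 0 mitosis genes passed, also with voom (4.09% lower and 4.19% higher over all tested genes). At an adjusted p under 0.05, 7 mitosis genes passed. The difference between replication and mitosis genes was not tested.

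Rrm2 (chromosome 12, 24708241 to 24714146), the regulated subunit of ribonucleotide reductase, fell the most. It stood at 28.3 and 30.1 TPM in Untr, 16.1 and 14.8 TPM with LPS and 5.39 and 5.18 TPM in Met + LPS, with no overlap between the groups, and its level in Met + LPS was 34.2% of that in LPS. The log2 fold change in Met + LPS vs. LPS was -1.39 ± 0.06 (SE, n = 2 libraries per group; adjusted p = 2.13e-05 in limma). The other reductase gene, Rrm1, went from 15.5 and 14.1 TPM to 10.5 and 10.0 TPM and fell by 0.48. Tyms, which makes dTMP, was at 3.45 and 3.44 TPM with LPS and 3.06 and 3.45 TPM in Met + LPS, and did not pass the test.

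Of the 6 helicase genes, 5 fell with metformin and Mcm2 did not pass (-0.21, adjusted p = 0.0535 in limma). Mcm7 went from 13.5 and 12.5 TPM to 4.90 and 6.92 TPM, a log2 fold change of -1.03 ± 0.13 (SE). It shares 321 exon bases with Ap4m1 on the opposite strand, 66.6% of its 31-base words are its own, and without LPS replicate A its adjusted p was 0.0103. Mcm5 (27.4 and 26.8 TPM with LPS, 14.4 and 16.2 TPM in Met + LPS) fell by 0.79, Mcm6 (72.1 and 74.7 against 47.4 and 48.2 TPM) by 0.61, Mcm3 (33.9 and 33.0 against 21.6 and 22 TPM) by 0.59 and Mcm4 (32.1 and 29.8 against 21.6 and 21.8 TPM) by 0.50. Each of these genes had both Met + LPS libraries below both LPS libraries. Cdc45 fell by 0.51, Uhrf1 by 0.70 and E2f1 by 0.49. The calls of Cdc45 and E2f1 were not firm: without 1 library, the adjusted p of Cdc45 was 0.013 to 0.0235 whichever library was left out, and that of E2f1 was over 0.01 (0.0105 to 0.0203) in 5 of the 6 cases, all but that without LPS replicate A.

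The genes that rose with metformin were the helicase loaders and Ccne1. Cdt1 rose by 1.40 ± 0.05 (SE; adjusted p = 8.59e-06 in limma), from 19.7 and 19.2 TPM to 52.9 and 53.2 TPM, or 272% of its level in LPS. Cdc6 was at 198% of its level in LPS and rose by 0.56 ± 0.10 (adjusted p = 0.00459), a call that was lost without any 1 library (adjusted p from 0.014 to 0.0266). Ccne1 went from 12.5 and 11.3 TPM to 18.4 and 18.5 TPM and rose by 0.59 ± 0.07 (adjusted p = 8.26e-04). Cdt1 and Cdc6 had fallen with LPS and were still below untreated in TPM (Cdt1 at 0.14 above it after rescaling), whereas Ccne1 rose in both comparisons, which share the LPS libraries. The 9 replication genes with an E2F site in the window searched included both directions in Met + LPS vs. LPS. Of these, 2 were higher (Cdt1 and Cdc6) and 5 lower, with log2 fold changes from -1.03 to 1.40. Of the 12 without a match in that window, 1 was higher and 4 lower. E2f1 was among these 4, and its window lay inside the gene.

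**Figure D4:**
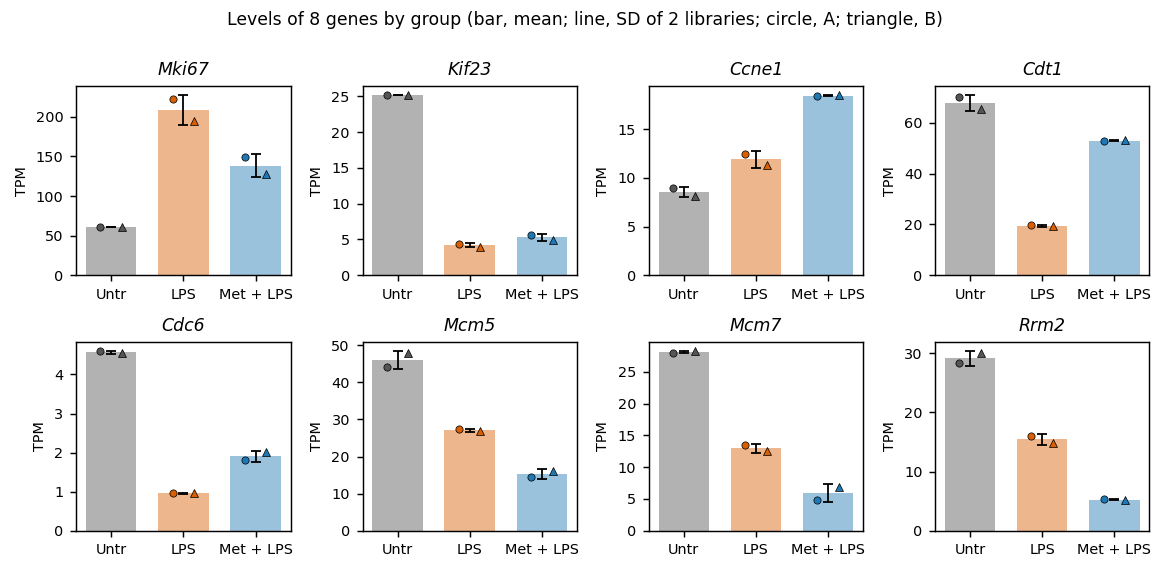
TPM of 8 members in the 3 groups; bars are means, lines the SD of 2 libraries, circles replicate A and triangles replicate B. Mki67 and Ccne1 are lowest in Untr, Cdt1 and Cdc6 are lowest in LPS, Kif23 is high in Untr alone, and Mcm5, Mcm7 and Rrm2 step down from Untr to LPS and to Met + LPS.

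The 3 mitosis genes that fell with metformin were Mki67 (-0.59 ± 0.09, SE; adjusted p = 0.00177 in limma), Aurka (-0.47 ± 0.07; adjusted p = 0.00202) and Plk1 (-0.43 ± 0.07; adjusted p = 0.00309). Aurka was at 11.3 and 11 TPM with LPS and 7.37 and 8.17 TPM in Met + LPS, and Plk1 at 10.5 and 11.7 against 8.30 and 7.71 TPM. Both kinases were below their LPS libraries in both replicates. With 1 library left out, only 1 of the 24 mitosis genes passed in 5 of the 6 cases (without either untreated library, either LPS library or Met + LPS replicate A) and 2 without Met + LPS replicate B. Kif23, the gene with the largest decrease with LPS, was at 4.39 and 3.99 TPM with LPS and 5.58 and 4.96 TPM in Met + LPS (0.27, adjusted p = 0.0259), without overlap but not past the threshold. The checkpoint genes Bub1 (0.05) and Ttk (0.07), the cyclin gene Ccnb2 (0.05) and Cenpf (-0.03) had overlapping groups. Of the remaining mitosis genes, the lowest log2 fold change was that of Birc5 (-0.35, adjusted p = 0.0306) and the highest that of Ccnb1 (0.19, adjusted p = 0.0722).

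Compared with untreated cells, the Met + LPS libraries had 21 of 24 replication genes lower, 1 higher (Ccne1, 1.02) and 2 not past the threshold (Pcna and Chaf1b), and 21 of 24 mitosis genes lower, 1 higher (Mki67, 1.18) and 2 not past it (Tpx2 and Nusap1). The background was 58.8% lower and 16.3% higher. After rescaling, 17 replication genes were lower and 3 higher, and 11 mitosis genes were lower and 2 higher, on a background of 32.2% lower and 31.4% higher. The median log2 fold change as deposited was -1.14 for the replication genes and -0.69 for the mitosis genes, beside -0.48 for all genes. The median level in Met + LPS was 42.2% of untreated for replication genes, 59.0% for mitosis genes and 68.5% for all tested genes. Rrm2 (-2.26), Mcm7 (-2.09) and Uhrf1 (-2.02) among the replication genes and Kif23 (-2.06) among the mitosis genes were past a log2 fold change of 2. Cdt1 was at -0.35 as deposited (adjusted p = 3.77e-04 in limma) and at 0.14 after rescaling.

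Other genes of the same pathways, from lists written with earlier results of these data known, were counted in the same fit. Their counts read against the same background as before, 60.1% lower and 16.2% higher with LPS as deposited, 29.5% and 29.1% after rescaling, and 18.0% lower and 14.5% higher with metformin, where rescaling left the count of each list as it was. Of 54 other replication and repair genes, 52 fell and 0 rose with LPS (also 0 with voom and at an unadjusted p under 0.05; median -1.01), and after rescaling 40 were lower and 1 higher. With metformin 8 rose and 8 fell (14.8% each, median -0.12), shares near those of all genes. The larger share of lower replication genes was thus seen in the 24 listed members only. On the log2(TPM + 1) scale, the largest decrease with LPS was that of Gmnn, which encodes geminin, the inhibitor of Cdt1. It stood at 63.2 and 68.9 TPM in Untr, 14.8 and 16.6 TPM with LPS and 12.9 and 15.6 TPM in Met + LPS (-2.0 with LPS), so that Cdt1 was higher in Met + LPS than in LPS while the Gmnn libraries of these groups overlapped. The mismatch repair gene Msh6 was next (-1.97). As a share of Untr, genes of low level were lower still, such as Dtl at 13.7% and Exo1 at 15.5% against 23.8% for Gmnn. With metformin, the chromatin factor gene Atad2 rose by 0.67.

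Of 60 other mitosis genes, 48 fell and 4 rose with LPS (median -0.79), and 29 were lower and 5 higher after rescaling. The largest decreases on the log2(TPM + 1) scale were those of Ccnf, the gene for cyclin F (24 and 21.1 TPM in Untr, 3.18 and 2.56 TPM in LPS; -2.61), and Cdca2 (-1.88). With metformin 3 rose and 5 fell (5.0% and 8.33%). The condensin II gene Ncapg2 was the largest of these, at 22.2 and 21.5 TPM in Untr, 10.7 and 10.6 TPM with LPS and 29.7 and 27.2 TPM in Met + LPS (1.34), followed by Cdca5, the gene for the cohesin protector sororin (-0.81).

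**Figure D5:**
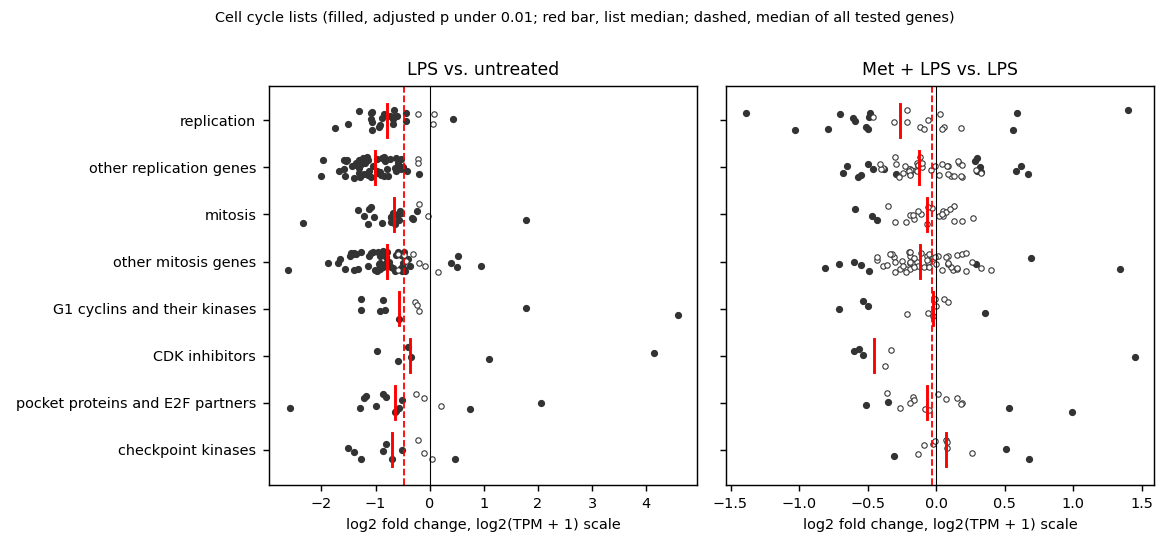
log2 fold change (log2(TPM + 1) scale) of each gene of 8 cell cycle lists in LPS vs. untreated and Met + LPS vs. LPS; filled points have an adjusted p under 0.01, red bars are list medians and the dashed line the median of all tested genes. The replication median is -0.79 with LPS and -0.26 with metformin; Ccnd2 (4.58) and Cdkn1a (4.14) lie far to the right with LPS.

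Regulators of entry into the cycle held the largest single changes. Of 11 G1 cyclin and kinase genes 2 rose and 6 fell with LPS (18.2% and 54.5%, near the shares of all genes; 2 higher and 5 lower after rescaling), and 1 rose and 3 fell with metformin. Ccnd2, the gene for cyclin D2, was at 2.74 and 2.63 TPM in Untr, 85.9 and 88.2 TPM with LPS and 60.1 and 59.6 TPM in Met + LPS (4.58 with LPS and -0.53 with metformin), and its kinase gene Cdk6 rose by 1.77 with LPS. Ccnd1, the gene for cyclin D1, fell by 0.71 with metformin, from 22.4 and 25 TPM to 14.8 and 13.4 TPM. Of the 7 genes for CDK inhibitors 6 were tested, of which 2 rose and 4 fell with LPS (2 higher and 1 lower after rescaling), and 1 rose and 3 fell with metformin. Cdkn1a, which encodes p21, was at 102 and 98.3 TPM in Untr, 1810 and 1760 TPM with LPS and 1210 TPM in both Met + LPS libraries (4.14 with LPS), and Cdkn2b rose by 1.09. With metformin, Cdkn1c, which encodes p57, rose by 1.45, from 44.3 and 46.6 TPM to 123 and 129 TPM, and Cdkn2d fell by 0.60.

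Among 16 pocket proteins, E2F factors and their partners, 2 rose and 11 fell with LPS (12.5% and 68.8%; 4 higher and 7 lower after rescaling), and 2 rose and 2 fell with metformin (12.5% each), shares near those of all genes. The activator gene E2f2 went from 13.3 and 15.4 TPM in Untr to 1.48 and 1.63 TPM in LPS (-2.58), while the repressor gene E2f8 went from 8.14 and 7.18 TPM to 36.1 and 34.3 TPM (2.06). With metformin, Lin54, the MuvB subunit that contacts the CHR, rose by 0.99 and Lin9, another MuvB subunit, by 0.53. Of 11 checkpoint kinase genes and partners 1 rose and 7 fell with LPS (9.09% and 63.6%; 3 higher and 4 lower after rescaling), led by Rad1 (-1.50) and Chek2 (-1.39). With metformin Wee1, the kinase that inhibits Cdk1, rose by 0.68 and Chek2 by 0.51, and 1 gene fell.

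In Met + LPS vs. untreated, where 58.8% of all genes were lower and 16.3% higher as deposited, the order of genes is that of the log2(TPM + 1) scale, which ranks genes of low level behind others. The other replication genes had 51 lower and 0 higher (also 0 with voom and at an unadjusted p under 0.05), led by Gmnn (-2.14) and Gins3 (-1.96). Exo1 was at 10.3% of Untr and Gmnn at 21.6%. The other mitosis genes had 46 lower and 3 higher, led by Ccnf (-2.80) and Pimreg (-2.28), and the G1 cyclins and kinases 6 lower and 2 higher, led by Ccnd2 (4.05) and Ccnd1 (-1.62). Of the CDK inhibitor genes 3 were lower and 3 higher (Cdkn1a at 3.58, Cdkn2c at -1.31), of the pocket proteins and E2F partners 11 lower and 3 higher (E2f2 at -2.58, E2f8 at 1.55), and of the checkpoint genes 7 lower (Rad1 at -1.41, Topbp1 at -0.95) and 0 higher, with 1 higher in voom and 1 at an unadjusted p under 0.05. After rescaling, the lower and higher genes numbered 39 and 1 for replication, 33 and 6 for mitosis, 5 and 2 for G1 cyclins and kinases, 3 and 3 for CDK inhibitors, 7 and 6 for pocket proteins and E2F partners, and 4 and 3 for checkpoint genes, beside 32.2% and 31.4% of all genes.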

How the data were processed

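The authors enriched poly-A RNA, aligned single-end reads to GRCm38 with STAR 2.6.1d, counted reads per gene with featureCounts (Subread 1.6.3) and deposited TPM for 54532 genes, without pooling replicates. Strand-specific counting and the step from counts to TPM are not given in the sources used here. The members, gene lists and motifs were chosen with earlier results of these data known. Samples were grouped by the labels.

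Here, a minimum of 1 TPM in 2 or more libraries left 12755 genes, to which limma 3.58.1 (R 4.3.3) was applied (lmFit, eBayes with trend, all libraries in a common fit, 3 residual degrees of freedom) on log2(TPM + 1), a scale that understates changes of low genes, with Benjamini-Hochberg adjustment over all tested genes. Calls needed an adjusted p-value under 0.01. A second count added the study's fold cut-offs, 2 on the log2 scale against untreated and 0.7 for Met + LPS vs. LPS. An exact permutation test of 2 against 2 libraries cannot go below 0.333, so p-values rest on the spread limma pools. Multiplied by GENCODE exon length, 96.0% to 96.2% of the values above 0 were whole multiples of a library's step within 0.01. All values with an exon length were rounded to whole multiples and taken as reads for limma voom. Of the members, 32 had at least 90% of their 31-base words in no other gene and 16 had less, whose reads the counting could have split or dropped. Every member is accounted for, and values per library are given for the largest changes and for those against their phase. From each other list the 2 called genes with the largest change were named, except 1 that is not reported here. Over all tested genes, libraries with the same letter did not deviate together (correlations of -0.00365, 0.0284 and 0.00624). Alternatives were another pseudocount, filter, scaling, set of libraries, trend, threshold, voom and the letter as a block. Tables and plots were made in Python 3.11.15 with pandas 2.3.3 and matplotlib 3.10.9.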

Additional observations from a re-analysis of the deposited data

How the results depend on the processing

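The number of members called is the result followed here. In LPS vs. untreated, replication genes (21) went to 11 lower and 3 higher after median-ratio scaling and to 0 with the fold cut-off. Mitosis genes (22) went to 11 after median-ratio scaling and to 1 with the fold cut-off. In Met + LPS vs. LPS, replication genes (13) went to 5 with the fold cut-off, and mitosis genes (3) to 1 without a filter, 0 in a fit of the compared groups only, 7 with voom, 6 with voom and median-ratio scaling, 7 at an adjusted p under 0.05 and 0 with the fold cut-off. In Met + LPS vs. untreated, replication genes (22) went to 17 lower and 3 higher after median-ratio scaling and to 3 with the fold cut-off. Mitosis genes (22) went to 13 after median-ratio scaling and to 1 with the fold cut-off. Leaving out 1 library gave 17 to 21 replication and 16 to 22 mitosis genes in LPS vs. untreated, 10 in every case and 1 to 2 in Met + LPS vs. LPS, and 20 to 21 and 19 to 22 in Met + LPS vs. untreated. Over all tested genes no pairing by replicate letter was seen, which does not show whether the letters mark separate runs. With the letter as a replicate block, 21 replication and 21 mitosis genes were called in LPS vs. untreated, 13 and 4 in Met + LPS vs. LPS, and 21 and 21 in Met + LPS vs. untreated. Scaling reversed single genes, of which Nusap1 in both comparisons with untreated and Pola1 in LPS vs. untreated were called neither as deposited nor after median-ratio scaling. In LPS vs. untreated after median-ratio scaling these were Top2a (0.17), Bub1 (0.12), Tpx2 (0.44), Ube2c (0.22), Mcm6 (0.06), Nusap1 (0.25) and Pola1 (0.21), and with voom and median-ratio scaling Top2a (0.20), Bub1 (0.15), Tpx2 (0.47), Nusap1 (0.29), Ube2c (0.26), Mcm6 (0.08) and Pola1 (0.26). In Met + LPS vs. untreated they were Bub1 (0.17), Tpx2 (0.47), Ube2c (0.10), Cdt1 (0.14), Pola1 (0.13) and Nusap1 (0.20) after median-ratio scaling and Bub1 (0.20), Tpx2 (0.50), Ube2c (0.12), Cdt1 (0.16), Pola1 (0.16) and Nusap1 (0.24) with voom and median-ratio scaling. TPM hold no measure of total RNA per cell, so neither scale is absolute. The minimum of 5 TPM left 44 members. Duplicates limit the precision, and reads carry no molecular identifiers, so that depth covers counting error only.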
